A study of Drosophila melanogaster with 3 samples.

Results

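The Notch pathway lets a cell read a signal carried on the surface of its neighbour. In all, 10 genes of this pathway were examined for peaks of Ouib-GFP in whole Drosophila melanogaster prepupae. They were the receptor gene N, the ligand genes Dl and Ser, the modifier fng, the protease genes kuz and Psn, the inhibitor numb, and the nuclear genes Su(H), mam and H. The genes were listed by name, and all 10 were found among the 13945 protein-coding genes of the main chromosomes; Dl is annotated as Delta. For each gene every peak was taken that overlapped the gene body or the 5 kb on either side. The authors' optimal list, the peaks they kept after thresholding on agreement between replicates, held 5048 peaks, and 30 of them lay in these spans.

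All 3 samples belonged to 1 group of biological replicates, so no condition was compared with another and no test between groups was possible. Each came from pooled male and female prepupae, of unknown age, of a transgenic line that stably expresses CG11762 (Ouib, a zinc-finger protein known from the ecdysone-producing prothoracic gland) with GFP at its C terminus. Fragmented chromatin was precipitated with an antibody against GFP and sequenced, and peaks were called against a control. Replicates 1, 2 and 3 and the pool of all 3 each had a list of 30000 peaks, weak background peaks included. The lists give the authors' signal value for each peak, on an unstated scale, and no read counts, so the depth of the libraries is unknown. To set replicates side by side, each signal was divided by the median of that replicate's 5048 best peaks and is called the relative signal here. Control libraries were not analysed here, and binding of Ouib and signal that the antibody or open chromatin may give cannot be told apart. In whole animals the tissue that gave a peak cannot be told either.

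As background, Notch is activated when Delta or Serrate on one cell binds the receptor on the next. Kuzbanian then cuts the receptor outside the membrane, Presenilin cuts it within the membrane, and the freed intracellular part enters the nucleus, where it joins Suppressor of Hairless and Mastermind to switch on targets such as the E(spl) genes. Fringe adds sugars to the receptor that shift its response from Serrate to Delta, Numb removes the signal from one daughter of a dividing precursor, and Hairless holds Suppressor of Hairless in a repressing state. In pupal development the pathway is known for patterning the wing and for choosing the precursors of sensory bristles.

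The sequence at the strongest optimal summit is shown for 5 of the genes. Each window is 200 bp of the plus strand of dm6, centred on the summit, from the RefSeq genome. The windows lay at chrX:3162426-3162625 for N, chr3R:19314400-19314599 for Dl, chr3R:27167495-27167694 for Ser, chr2L:13571032-13571231 for kuz and chr2L:9449587-9449786 for numb. Capitals mark AGTGCA and GAGAG on either strand; in N and Ser the 2 strands of AGTGCA overlap.
N: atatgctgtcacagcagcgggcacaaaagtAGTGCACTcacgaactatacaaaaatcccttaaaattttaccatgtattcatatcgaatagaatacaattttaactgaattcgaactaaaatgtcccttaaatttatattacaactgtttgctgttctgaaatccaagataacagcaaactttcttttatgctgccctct
Dl: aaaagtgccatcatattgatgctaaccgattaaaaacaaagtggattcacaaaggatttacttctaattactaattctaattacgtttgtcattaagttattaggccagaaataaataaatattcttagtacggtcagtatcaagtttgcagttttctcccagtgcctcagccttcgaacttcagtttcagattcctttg
Ser: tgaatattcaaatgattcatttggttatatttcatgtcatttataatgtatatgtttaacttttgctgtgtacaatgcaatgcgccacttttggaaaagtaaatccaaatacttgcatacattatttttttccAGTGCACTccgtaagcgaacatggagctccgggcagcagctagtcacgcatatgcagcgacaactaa
kuz: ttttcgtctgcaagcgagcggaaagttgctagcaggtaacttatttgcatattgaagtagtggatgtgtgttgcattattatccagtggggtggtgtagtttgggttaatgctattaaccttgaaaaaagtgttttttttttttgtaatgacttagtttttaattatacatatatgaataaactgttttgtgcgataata
numb: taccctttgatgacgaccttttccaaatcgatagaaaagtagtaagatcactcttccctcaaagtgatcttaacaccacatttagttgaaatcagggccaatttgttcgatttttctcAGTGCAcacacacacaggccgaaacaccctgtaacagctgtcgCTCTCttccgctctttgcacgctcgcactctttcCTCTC

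The GC content of these windows ran from 32.5% at kuz to 45.0% at numb. Over all 30 optimal summits of these genes the median GC content was 32.8%, against 33.5% over all 5048. Of the strongest windows of the 7 genes with an optimal peak, 5 of them shown, 3 held AGTGCA, those of N, Ser and numb. This word was picked after the windows had been read, and it was in 11 of the 30 summit windows (36.7%), in 21.2% of all optimal summit windows and in 12.7% of windows 1000 bp to each side of the optimal summits. The letters bound by GAGA factor, GAGAG, were in the window of numb and in 5 of 30 in all (16.7%, all summits 21.7%). The Su(H) core TGGGAA was in 1 of 30, an intronic window of Dl (3.33%, all summits 10%). Of promoter elements, the TATA box, searched as TATAAAA, was in 2 (6.67%, all summits 18.0%). The DNA replication-related element, searched as TATCGATA, was in 0 (all summits 1.43%), as was the core promoter word GGTCACAC (all summits 1.03%). The E-box CACGTG was in 2 (6.67%, all summits 1.68%). A match is only a run of letters and does not show that a factor was bound. All motifs were counted on both strands.

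Optimal peaks lay at 7 of the 10 genes, which were the 7 longest. N had 4, Dl 2, Ser 3, fng 6, kuz 3, numb 3 and mam 9, while Psn, Su(H) and H had none. Among all protein-coding genes 43.5% had an optimal peak in the body or within 5 kb. That share rose with length, from 38.5% of genes under 5 kb and 56.1% of those of 5 to 20 kb to 63.9% of those of 20 to 50 kb and 67.8% of those of 50 kb or more. N, Dl, Ser, fng and numb were 20 to 50 kb long and kuz and mam longer. Whether length accounts for the split of the 7 from the other 3 was not tested. Not every one of the 30 peaks need belong to its gene: 19 had the TSS (transcription start site) of that gene as the nearest of any protein-coding gene, and these 19 lay at 6 of the genes, without Ser.

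**Figure D1:**
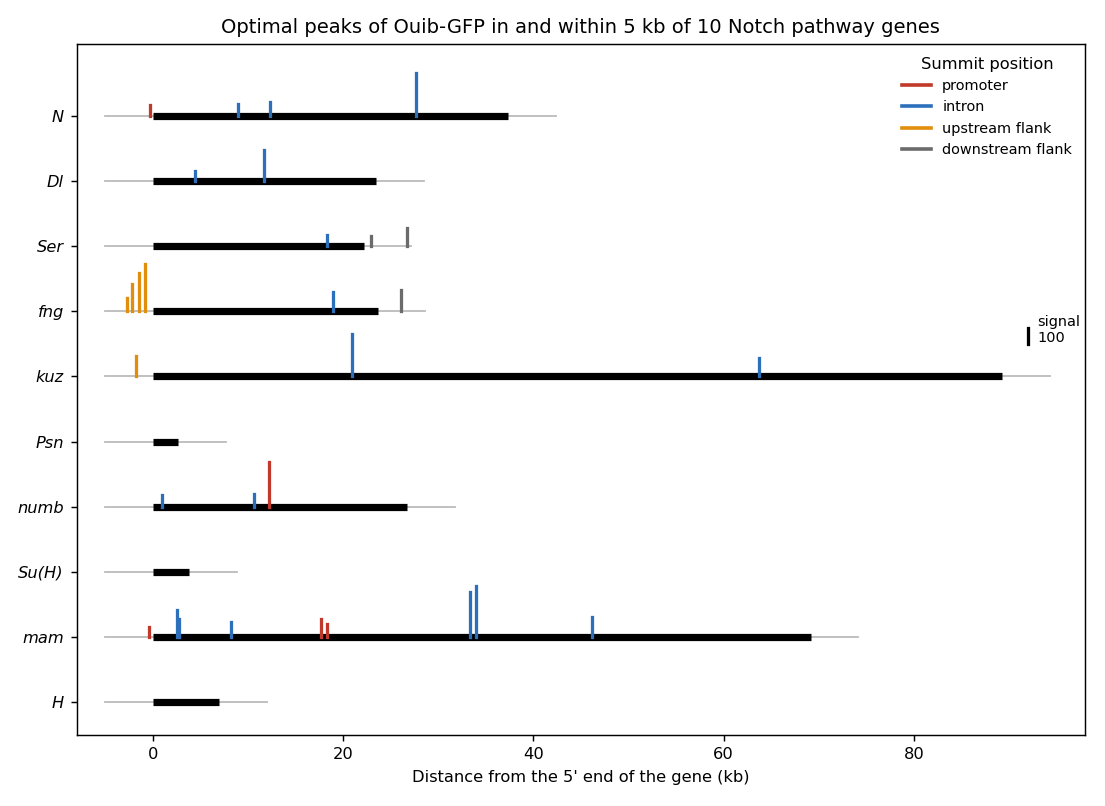
Optimal peaks at the 10 genes. Each row is a gene drawn 5' to 3' (black) with 5 kb flanks (grey), the horizontal axis is the distance from its 5' end in kb, and each vertical line is a peak whose height is the authors' signal (key, 100), coloured by position. Psn, Su(H) and H have no line, 4 of the 6 lines of fng stand upstream of the gene, and the tallest lines of N, kuz and mam stand inside introns.

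Within these spans, 17 of the 30 summits (56.7%) lay in introns, 5 (16.7%) within 500 bp of a TSS of the gene (called promoter summits here), 5 (16.7%) in the upstream flank, 3 (10%) in the downstream flank and 0 in exons. The same count over all 2402 pairs of an optimal peak and a protein-coding gene of 20 kb or more gave 68.1% in introns, 12.7% at promoters, 9.99% upstream, 8.66% downstream and 0.583% in exons. Promoter summits were found at 3 of the 10 genes, N, numb and mam. The share of protein-coding genes with one was 14.9% over all genes, 22.9% for genes of 20 to 50 kb and 25.1% for genes of 50 kb or more. At these genes the weaker lists gave a larger share of intronic summits. The same share over all genes is not given here for those lists. In the pooled list 130 of 182 summits (71.4%) were intronic and 14 (7.69%) at promoters. Introns held 72.7%, 67.3% and 67.2% of the 187, 159 and 177 peaks of replicates 1, 2 and 3.

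Peaks were dense in the spans of the longer genes. The 5 genes of 20 to 50 kb held 9.81 optimal peaks per 100 kb, where all protein-coding genes of that length held 4.58. N stood at 8.45, Dl at 5.97, Ser at 9.32, fng at 17.8 and numb at 8.17 optimal peaks per 100 kb. The 2 genes of 50 kb or more held 6.72 together, against 3.16 for all such genes, with mam at 11.4 and kuz at 3.02. In the pooled list the density was 52.9 per 100 kb for the former 5 (all genes of that length, 27.7) and 45.9 for kuz and mam (all, 21.2). By count of peaks, 31.3% of genes of 20 to 50 kb had at least 3 optimal peaks and 8.64% had at least 6, the number at fng. At least 9, the number at mam, were found at 12.7% of genes of 50 kb or more. No test was run on these densities, since the genes were listed with results of the same peaks known.

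**Figure D2:**
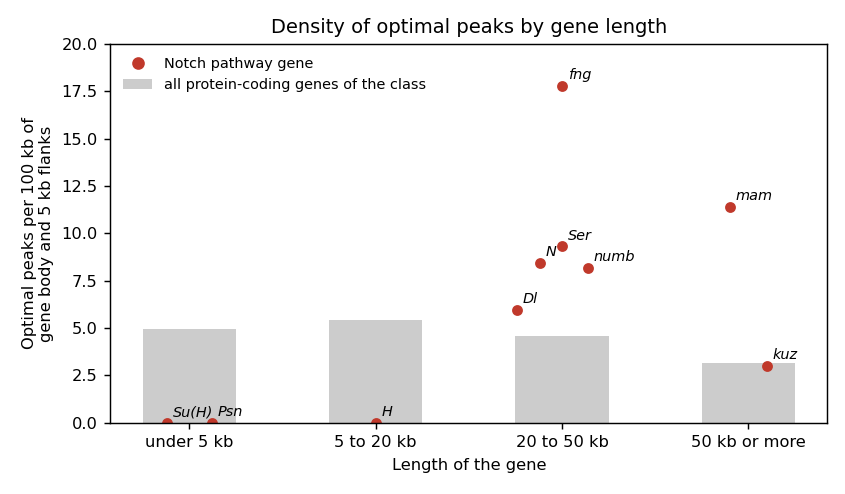
Optimal peaks per 100 kb of gene body and 5 kb flanks (vertical axis) by gene length (horizontal axis). Points are the 10 genes and bars all protein-coding genes of the class; fng (17.8) and mam (11.4) stand highest, kuz (3.02) stands at the level of its class (3.16), and Su(H), Psn and H are at 0.

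Of the 30 peaks, 23 (76.7%) overlapped a best peak of all 3 replicates, 3 of 2 and 4 of 1. The 23 include 2 overlapping peaks of mam that matched the same single peak in each replicate and were counted separately. Over all optimal peaks 66.4% overlapped one in all 3. The optimal list was thresholded on the agreement of these same replicates, so this is no independent evidence. Among the 500 strongest optimal peaks were 6 of the 30 (20%; 9.90% of all optimal peaks are), at N, fng, numb, kuz and mam, the last with 2. The median signal was 116 for the 30 and 102 for all.

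N encodes the receptor itself (FBgn0004647, chromosome X from 3134870 to 3172221, plus strand). Its strongest peak lay in intron 5 of 8, 27.7 kb downstream of the only annotated TSS and 10614 bp from a TSS of CG18508, from 3162481 to 3162584, and ranked 463 in the optimal list. The relative signal was 2.35, 2.52 and 2.95 in replicates 1, 2 and 3. All 3 replicates stood well above the median of their best peaks, and the mean was 2.61 ± 0.308 (SD, n = 3). The 3 other peaks were weaker, with means from 0.629 to 0.841. Both others inside the gene lay in intron 1, which is 12.1 kb long, 8.94 kb and 12.3 kb from the TSS. The promoter summit lay 344 bp upstream of the TSS, in a stretch that is also inside the gene kirre. It was uneven between replicates, at 0.822, 0.333 and 0.956, with rank 10014 in replicate 2, outside its best peaks.

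Dl (FBgn0000463, chromosome 3R from 19302731 to 19326217, minus strand) encodes the ligand Delta. Both of its peaks were intronic. The stronger lay in intron 3 of 5, 11.7 kb from the TSS, from 19314302 to 19314697. Its relative signal was 1.91, 1.56 and 2.05 in replicates 1, 2 and 3 (mean 1.84 ± 0.254, SD, n = 3). The weaker lay in intron 1, 4.44 kb from the TSS, from 19321577 to 19321972, and had a rank of 5040 of 5048. It stood at 0.461, 0.454 and 0.844, and only replicate 3 had it among its best peaks. The pooled list held 16 peaks at Dl, 11 of them intronic and 1 at the promoter.

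Ser (FBgn0004197, chromosome 3R from 27172090 to 27194267, minus strand) encodes the other ligand, Serrate, and its 3 peaks all lay in or beyond the 3' part of the gene. The strongest was in the downstream flank from 27167397 to 27167792, 26.4 kb from the nearest TSS of Ser and 1879 bp from that of spn-D, its neighbour, a gene of DNA repair in the germ line. The relative signal there was 1.19, 1.06 and 0.779 in replicates 1, 2 and 3 (mean 1.01 ± 0.210, SD, n = 3), near 1 and so about as strong as a typical best peak. The peak in intron 12 of 14, from 27175782 to 27176177, stood at 0.663, 0.608 and 0.667. The last, from 27171176 to 27171571, stood at 0.452, 0.677 and 0.520 and was among the best peaks of replicate 2 only. No promoter summit of Ser was in the optimal list.

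fng (FBgn0011591, chromosome 3L from 20925891 to 20949512, minus strand) encodes Fringe, the glycosyltransferase that modifies the receptor, and had a row of 4 optimal summits upstream of its only TSS. The strongest ranked 347 in the optimal list, and the other 3 of the row lay 1.45, 2.19 and 2.71 kb from the TSS. Its relative signal was 2.75, 2.94 and 3.05 in replicates 1, 2 and 3 (mean 2.92 ± 0.151, SD, n = 3), the smallest spread of the strongest peaks of the 7 genes. The other 5 peaks of fng had means from 0.884 to 2.28, and each was among the best peaks of all 3 replicates. They include 1 in intron 4 of 6 and 1 in the downstream flank. None of the 6 came within 500 bp of the TSS, so fng was not counted as having a promoter summit.

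kuz (FBgn0259984, chromosome 2L from 13550139 to 13639411, plus strand) encodes the metalloprotease that makes the first cut in the ligand-bound receptor. Its strongest peak lay in intron 3 of 12, which is 51.0 kb long, 21.0 kb from the TSS, from 13570934 to 13571329. The relative signal was 2.85, 2.48 and 2.21 in replicates 1, 2 and 3 (mean 2.51 ± 0.322, SD, n = 3). A peak in intron 5, 63.7 kb from the TSS, stood at 1.17, 1.07 and 0.980. The other lay 1.81 kb upstream of kuz, inside the neighbouring gene B4 and 562 bp from a TSS of B4. It stood at 0.985, 1.38 and 1.33, and all 3 peaks of kuz were among the best of every replicate.

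Psn (FBgn0284421, chromosome 3L from 20432468 to 20435156, plus strand) encodes Presenilin, the catalytic subunit of the gamma-secretase that makes the last cut. It had no optimal and no pooled peak, and none in the lists of replicates 2 and 3. Among genes under 5 kb, 20.4% had no pooled peak. The list of replicate 1 alone held 5 peaks there, all weak, at ranks from 11599 to 22682 of 30000. One of these had its summit 23 bp from a TSS of Psn, at a relative signal of 0.259. The nearest optimal summit was 7.01 kb from the gene.

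numb (FBgn0002973, chromosome 2L from 9437469 to 9464184, plus strand) encodes the endocytic adaptor that blocks the receptor in one daughter cell. Among the 10 genes, numb had the only optimal summit within 250 bp of a TSS of the gene itself. The peak, from 9449632 to 9449737, had its summit 143 bp upstream of the second TSS of numb, an internal start that lies within intron 2 of the longest transcript. The relative signal was 2.50, 2.70 and 2.98 in replicates 1, 2 and 3 (mean 2.72 ± 0.240, SD, n = 3), and its rank in the optimal list was 390. Both other peaks were weak and intronic. One, 924 bp downstream of the first TSS from 9438195 to 9438590, stood at 0.754, 0.587 and 0.754. The other, 1719 bp upstream of the internal TSS from 9447913 to 9448308, stood at 0.691, 0.751 and 0.674.

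Su(H) (FBgn0004837, chromosome 2L from 15039488 to 15043334, plus strand) encodes the DNA-binding factor through which the receptor acts. It had no optimal peak, and the nearest optimal summit lay 13.6 kb from the gene. The pooled list held 3 weak peaks, with the strongest at rank 13502 and its summit 93 bp upstream of the TSS, from 15039197 to 15039592. Peaks that overlapped it stood at 0.481, 0.248 and 0.288 in replicates 1, 2 and 3, at ranks of 7373, 14854 and 15070. Every replicate had a peak at this promoter, and none had it among its best.

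mam (FBgn0002643, chromosome 2R from 13991203 to 14060356, plus strand) encodes the coactivator Mastermind and had 9 optimal peaks, the most of the 10 genes. The strongest, from 14025131 to 14025292, lay in intron 3 of 6, which is 27.5 kb long, 6.47 kb upstream of the nearest of 3 TSSs of mam and 3426 bp from a TSS of CG18371, the nearest of any protein-coding gene. Its relative signal was 2.89, 2.95 and 3.60 in replicates 1, 2 and 3 (mean 3.15 ± 0.392, SD, n = 3), and its rank was 280. The second, from 14024457 to 14024669 in the same intron and 4084 bp from that TSS of CG18371, stood at 3.15, 2.64 and 2.59. The other optimal peaks of mam were weaker than this pair, down to a mean of 0.491. Intron 2 held 2 overlapping peaks, from 13993600 to 13993995 and from 13993803 to 13994198, which both matched the same single peak in each replicate. Around the second TSS, optimal summits lay 355 bp upstream and 363 bp downstream. The remaining promoter summit, 413 bp upstream of the first TSS, lay only 83 bp from a TSS of the neighbour RN-tre. It stood at 0.241, 0.865 and 0.366, and only replicate 2 had it among its best peaks.

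H (FBgn0001169, chromosome 3R from 20621938 to 20628915, plus strand) encodes Hairless, the antagonist that binds Su(H). No peak of any of the 5 lists overlapped the gene or its 5 kb flanks. That was so for 0.648% of the 2471 genes of 5 to 20 kb, of which 5.99% had no pooled peak. At 6.98 kb, H is near the short end of that class, and 20.4% of genes under 5 kb had no pooled peak. The stretch without a summit around the gene was 39.4 kb long in the optimal list, 29.1 kb in the pooled list and 29.2, 17.6 and 23.0 kb in replicates 1, 2 and 3. The nearest optimal summit lay 5.23 kb from the gene, just beyond the flank. Whether reads could be placed in this stretch was not measured, and the empty lists do not show that Ouib-GFP was absent there.

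By the strongest peak, the order of the genes was mam, fng, numb, N, kuz, Dl and Ser. The first 5 formed a run in which each overlapped its neighbour in the range of the 3 replicates, from 2.89 to 3.60 for mam to 2.21 to 2.85 for kuz. Dl (1.56 to 2.05) lay below the range of kuz, and Ser (0.779 to 1.19) below that of Dl, and both steps had the same direction in 3 of 3 replicates. Within the run, fng was below mam, numb below fng and N below numb in 3 of 3 replicates, by as little as 2.94 against 2.95, and kuz was below N in 2 of 3. The signals of the strongest peaks are the largest of each gene, so a gene with more peaks had more chances to rank high. These ranks are a description and were not tested.

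**Figure D3:**
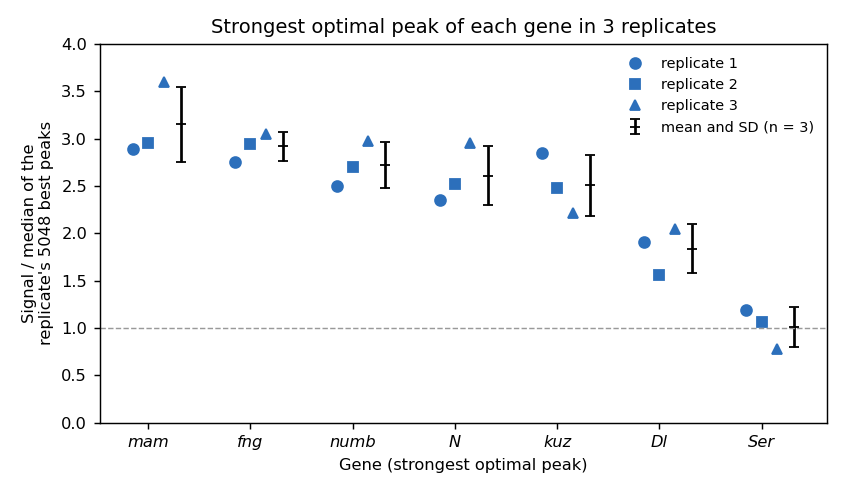
Relative signal (signal divided by the median of the replicate's 5048 best peaks, vertical axis) of the strongest optimal peak of each of 7 genes (horizontal axis) in 3 replicates, with the mean and SD. The genes from mam to kuz stand between 2.21 and 3.60, each overlapping the next, Dl lies between 1.56 and 2.05 and Ser between 0.779 and 1.19, around the dashed line at the median.

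Another 64 genes of the pathway were listed by role, of which 4 were matched through other symbols in the annotation. An optimal peak in the body or within 5 kb was found at 43 (67.2%), against 43.5% of all protein-coding genes, and a promoter summit at 13 (20.3%, all genes 14.9%). Of the 35 under 5 kb long, 22 had an optimal peak, but the E(spl) genes lie together and share peaks. Without them the count was 11 of 23 under 5 kb (all genes of that length, 38.5%), and 32 of 52 (61.5%) over all lengths. Of those of 5 to 20 kb, 15 of 22 had one (all genes of that length, 56.1%). The counts were 4 of 5 at 20 to 50 kb (all, 63.9%) and 2 of 2 at 50 kb or more (all, 67.8%). Whether gene length accounts for the difference from 43.5% was not tested.

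Genes that act on the ligands had an optimal peak in 4 of 8 cases, close to the 43.5% of all protein-coding genes, and Brd and Ocho among the 4 shared a single peak. The strongest lay in an intron of neur, the ubiquitin ligase that makes Delta active, 1.72 kb from a TSS, with a relative signal of 4.44 ± 0.742 (SD, n = 3), and the next at aux, an auxilin of endocytosis, with 1.53 ± 0.332. Of the genes of glycosylation and folding, 2 of 3 had one, O-fut1, which adds fucose to the receptor (3.53 ± 0.791, 3.79 kb upstream), and rumi, which adds glucose (1.58 ± 0.246, 98 bp upstream of its TSS). Beside Psn, 1 of the 3 other gamma-secretase subunit genes had one, aph-1, with a promoter summit at 2.24 ± 0.286. Nicastrin and pen-2 had none. Of the metalloprotease genes related to kuz, Tace had none. Kul had the strongest peak of all the listed genes, 5.34 ± 0.547 (SD, n = 3), in its downstream flank 11.0 kb from its TSS. For the 64 other genes the nearest TSS of any gene is not given here, so a peak, above all in a flank, need not belong to the listed gene.

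Trafficking genes and ubiquitin ligases had a peak in 5 of 12 cases (41.7%, all protein-coding genes 43.5%), led by lgd, which sorts the receptor in endosomes (4.07 ± 0.246 at its promoter), and pcx (2.59 ± 0.173). Partners of numb and other genes of asymmetric division had one in 4 of 7 (57.1%, all protein-coding genes 43.5%). They were led by baz, a polarity protein gene (4.22 ± 0.563, SD, n = 3), whose summit lay in an exon, and aPKC, a polarity kinase gene (2.76 ± 0.483). Nuclear cofactors had one in 7 of 9 (77.8%, all protein-coding genes 43.5%). These 9 genes ran from under 5 kb to the class of 20 to 50 kb, lengths with shares from 38.5% to 63.9% over all genes. At HDAC1, Bx42 and sno the only optimal peak lay in the upstream flank. The corepressor gene gro stood at 3.54 ± 0.513 with a promoter summit, and skd, a Mediator subunit gene, at 2.37 ± 0.0354. The peaks given for pcx, aPKC and skd lay in the upstream flank.

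Among target genes, 11 of 12 genes of the E(spl) complex and 8 of 8 other listed targets had an optimal peak. All genes of the complex are under 5 kb, a length at which 38.5% of protein-coding genes had one, but they are neighbours and the strongest peaks of the 11 were only 5 different peaks. Of the 8 others, 1 was under 5 kb, 4 were 5 to 20 kb, 1 was 20 to 50 kb and 2 were longer, lengths with shares from 38.5% to 67.8% over all genes. No test was run on these counts. The E(spl) complex is a row of repressor and Bearded-family genes on chromosome 3R from 25997621 to 26041008. With its 5 kb flanks it held 11 optimal peaks, or 20.6 per 100 kb, and 31 pooled ones, or 58.1 per 100 kb. All protein-coding genes under 5 kb, with their flanks, held 4.97 and 22.3 per 100 kb. Of the 11, 5 were among the 500 strongest optimal peaks (9.90% of all optimal peaks are). Of these 5, the peaks that start at 25996548, 25997086 and 26042401 lay in the flanks. The strongest, from 26042401 to 26042628 with a signal of 389, is the promoter peak of gro, next to the complex, and was counted also for E(spl)m7-HLH and E(spl)m8-HLH. E(spl)malpha-BFM and E(spl)mbeta-HLH shared the next, at 3.42 ± 0.222 (SD, n = 3). E(spl)m5-HLH alone had none. Of the other targets, the strongest peaks lay at Myc, a growth regulator gene (3.10 ± 0.503, in an intron), and dpn, a neural stem cell repressor gene (2.67 ± 0.170, 5.08 kb upstream).

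**Figure D4:**
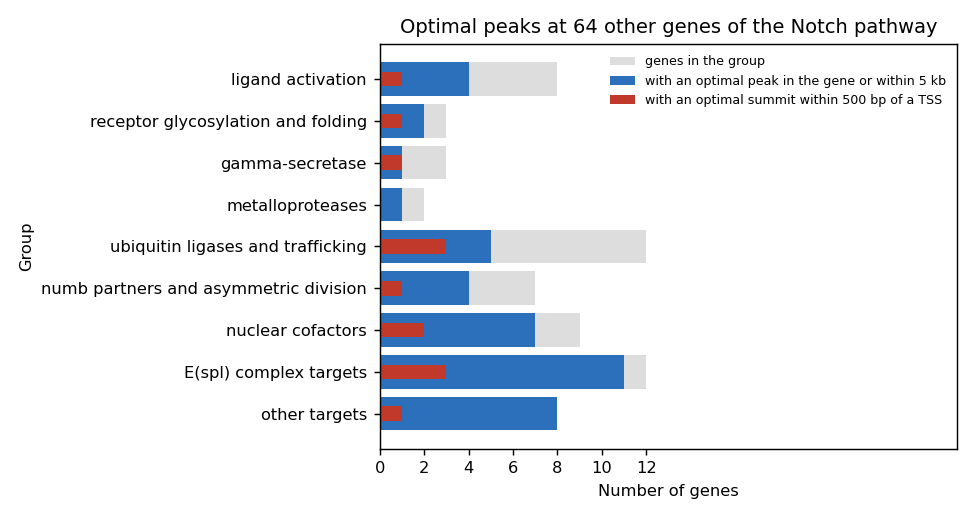
Number of genes (horizontal axis) in each group of 64 other Notch pathway genes (grey), with an optimal peak in the gene or within 5 kb (blue) and with a promoter summit, within 500 bp of a TSS (red). The blue bars fill 8 of 8 other targets and 11 of 12 E(spl) genes, and 5 of 12 genes of ubiquitin ligases and trafficking.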

How the data were processed

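Peak lists of 3 replicates, of their pool and of the optimal set on dm6 were used; the dm3 lists were not used here. Each peak has a signal value and a −log10 q-value, as the authors deposited them, with the columns read by the narrowPeak layout. The file lists deposited with the samples say that each list was made from alignments and a control, and that irreproducible discovery rate across the other 4 gave the optimal list. The peak caller is not given in the sources used here. No counts were given, so depth is unknown and only 3 replicates bear on precision.

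Genes and TSSs came from Ensembl release 115 (BDGP 6.54) and the bases from the RefSeq copy of this assembly. A peak was given to a gene by an overlap of at least 1 bp with its body or 5000 bp flanks. Summits within 500 bp of a TSS of the gene were called promoter summits, then those in an exon, an intron or a flank, and introns are numbered in the longest transcript that holds the summit in one. In a replicate, the strongest peak that overlaps the optimal peak was taken, and its signal was divided by the median of the 5048 best. Counting was checked on peaks written at known positions. Python 3.11.15, numpy 2.4.6, pandas 2.3.3 and matplotlib 3.10.9 were used.

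The genes, lists and rules were chosen with earlier results of these data known, so no list was tested. All 10 genes are named, with the strongest optimal peak of the 7 that have one, the strongest pooled peak of Su(H), all peaks where there are at most 3, and 2 genes of the highest signal per group of other pathway genes. The word AGTGCA, the densities by length, the peaks by nearest TSS and the weaker peaks named at N, fng and mam were chosen after seeing the data. The sequences of the strongest windows of mam and fng, and the position of the latter, are not reported here. Alternatives covered flanks, overlap, promoter window, thresholds, the number of best peaks and each replicate left out.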

Additional observations from a re-analysis of the deposited data

How the results depend on the processing

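The 7 genes with an optimal peak kept their number when any replicate was left out (7 to 7), and the spans then held 23 to 25 of the 30 peaks. These counts keep an optimal peak only if both remaining replicates had it among their best, a stricter demand than in the full list. The list itself still came from all 3 replicates, so the counts could not rise. The strongest peak of each of the 7 genes was among the best of all 3 replicates, so the 7 could not fall either. The promoter count of 3 genes fell to 1 with a window of 250 bp, with the 2000 strongest optimal peaks and with the 500 strongest; without single replicates it was 2 to 3. With the 2000 strongest peaks the spans held 14 (3.45 per 100 kb, rest of the genome 1.49), with the 500 strongest 6 (1.48 and 0.370) and with the 10000 strongest pooled peaks 57 (14.1 and 7.45), against 30 (7.40 and 3.76). Only 19 had the TSS of the gene as the nearest, an alternative chosen after seeing the data. The count of 43 other pathway genes fell to 23 with flanks of 1000 bp, to 17 with the gene body alone and to 20 with the 500 strongest peaks. The share of all protein-coding genes at these settings is not given here. The 43.5% holds only for 5 kb flanks and the whole optimal list. The median relative signal of the strongest peaks, 2.61, became 1.88 with the 3000 best peaks of each replicate as the divisor and 4.19 with the 10000 best, since the divisor changes, and the peaks found in all 3 replicates fell from 23 to 13 with the 3000 best. The share of summits in introns, 56.7%, was 70.8% with flanks of 1000 bp and 85.0% with the gene body alone, since flank peaks then drop out. The other values of main results moved by at most 1.5 times or, for signals, by less than 1 SD. Depth is unknown, so peaks missing from a list cannot be read as absent binding.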

Other observations

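AGTGCA, seen in the windows of N, Ser and numb, also occurred at weaker summits. By gene it was in 3 summit windows of N, 3 of numb, 2 of Ser, 2 of fng and 1 of mam, and in none at Dl or kuz. The longer AGTGCAC was in 3 of the 30 windows (10%), those shown for N, Ser and numb. Over all optimal summits it was in 6.38%, over the 500 strongest in 6.80%, and in 2.29% of the windows 1000 bp to each side. The word was chosen from these windows, so its share there is not independent of the choice, and no test was run.

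The pooled list left a stretch of 28.5 kb without a summit around Psn, close to the 29.1 kb around H. Outside the spans of the 10 genes it held 22.3 peaks per 100 kb. Replicates 2 and 3 had stretches of 27.9 and 32.9 kb around Psn, while replicate 1 held its weak peaks inside the pooled stretch. Only genes without a pooled peak were measured in this way, so a long empty stretch followed from that choice. Stretches around other such genes were not measured, and the 22.3 is an average that gives no usual length of a stretch. Over the spans of all 10 genes, 86 of 182 pooled peaks (47.3%) overlapped a peak in the whole list of every replicate, against 46.3% of all pooled peaks.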
